A study of Mus musculus with 7 samples.

Results

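MiR-146a, miR-146b and miR-155 (mmu-miR-146a, mmu-miR-146b and mmu-miR-155 on the array) are microRNAs whose genes are switched on by NF-kB, the transcription factor that carries signals from toll-like and cytokine receptors to the nucleus. They were picked by name among the 696 mouse miRNAs of the array, and all 3 were found, each with 2 probes. MiR-146a and miR-146b are known to repress TRAF6 and IRAK1, adaptors of the same receptor pathway, and so to form a negative feedback loop. MiR-155 is processed from the non-coding transcript of its host gene and is known to repress SOCS1 and SHIP1, inhibitors of cytokine and phosphoinositide signalling. In tissue these miRNAs are best known from macrophages and lymphocytes, although other cells also make them when stimulated.

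Kidney total RNA of male C57BL/6 mice, bought at 9 to 12 weeks of age, was dyed with Cy3 and measured on Agilent miRNA arrays with 1 colour. Of the 7 arrays, 4 carry the group label non-treated and 3 the label treated, and both groups share strain, sex, age range and collection at day 28. The methods describe a unilateral ureteral obstruction (UUO), in which the left ureter is tied, and a sham operation, in which it is exposed only. They do not say which label stands for which operation. The treated arrays have S in their titles, possibly for sham, and the non-treated arrays have C, possibly for control. The titles do not settle the question. Arrays are therefore called treated or non-treated after their label, and every direction given here is labelled treated minus labelled non-treated. Each array is listed as a separate sample, but the labels tie no array to a mouse, so p-values measure the spread between these arrays, which may be technical. The kidney miRNAs miR-192, miR-194 and miR-204 were detected on all arrays of both groups. In bulk tissue, fewer cells of a type and less RNA per cell cannot be told apart.

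The mature sequences of the 3 miRNAs are shown because their seeds, the bases at positions 2 to 8 that pair with target mRNAs, divide them into 2 groups. Capitals mark the seed, and the sequences come from RefSeq on the mouse build GRCm38.p6, with the array's names, which give no arm, taken as the 5p strand.
miR-146a: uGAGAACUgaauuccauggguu
miR-146b: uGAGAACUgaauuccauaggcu
miR-155: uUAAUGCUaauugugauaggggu
MiR-146a and miR-146b share the seed GAGAACU, which no other of the 1738 mature mouse miRNAs in the RefSeq table carries, and they match at 20 of 22 positions. Their differences, counted from 1 at the 5′ end with the base of miR-146a first, are G18A and U21C. MiR-155 has the seed UAAUGCU, which no other miRNA of the table holds, and it matches miR-146a at 10 and miR-146b at 11 of 22 positions. MiR-146a lies on the minus strand at chr11:43374435-43374456, in the gene Mir146, outside every other gene listed. MiR-146b lies on the plus strand at chr19:46342790-46342811, and its hairpin is inside the long non-coding RNA gene Gm36493. MiR-155 lies on the plus strand at chr16:84714143-84714165, with its hairpin inside Mir155hg, the non-coding host gene. Probe sequences were not used here, so whether the probes for miR-146a also bind miR-146b was not tested.

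All 3 miRNAs had a lower signal on the treated arrays, which is opposite to the direction the study lists for miR-146a if treated is read as obstructed. The study lists neither miR-146b nor miR-155. The opposite direction is not particular to miR-146a: it also holds for the other miRNAs named here that the study lists, such as miR-21, miR-192 and miR-223. With arrays scaled to the miRNAs that all of them detected, miR-146a was 4.07 times as high on the non-treated arrays (95% interval 3.53 to 4.69, n = 4 against 3). MiR-155 was 3.54 times as high (95% interval 2.83 to 4.43). The intervals do not cover the choice of scaling. No treated array detected miR-146b, which was at least 6.86-fold higher if held against the lowest signal of a detected miRNA. Against the lowest signal of a whole probe above background, its brighter probe was at least 3.38-fold higher. All 3 passed the threshold of an adjusted p below 0.01 in limma, miR-146b with its treated values set to a floor. Over all 236 miRNAs tested, 54.7% passed in either direction and 30.9% in this direction. A miRNA was tested where all arrays of 1 group or of both detected it, by Agilent's software.

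The background-subtracted signal of miR-146a, summed over its probes and not yet scaled between arrays, was 316, 367, 161 and 336 on the arrays of non-treated replicates 1 to 4. On the arrays of treated replicates 1, 3 and 4 it was 30.5, 38.2 and 25.7. The lowest non-treated array, replicate 3, thus lay well above the highest treated one. Arrays differed in overall brightness: the 186 miRNAs that all arrays detected had a mean log2 signal of 7.24 ± 0.40 (SD, n = 4) on the non-treated arrays, with replicate 3 lowest at 6.65, and 6.09 ± 0.32 (SD, n = 3) on the treated arrays. The spike-in controls had a mean log2 signal of 10.67, 10.60, 10.20 and 10.61 on the non-treated arrays and 10.33, 10.58 and 10.05 on the treated arrays. The origin of the larger gap in the miRNAs was not tested. Signals were scaled to remove the difference in the mean of the 186 miRNAs and taken as log2. After scaling, miR-146a had a log2 signal of 7.66, 7.75, 7.43 and 7.74 on the non-treated arrays and of 5.63, 5.58 and 5.64 on the treated arrays. The groups stayed apart, and the SD on this scale was 0.035 (n = 3) on the treated and 0.15 (n = 4) on the non-treated arrays. This is a log2 fold change of -2.02 with a standard error of 0.084 (limma adjusted p = 3.59e-06).

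MiR-155 showed the same order of groups. Its unscaled signal was 95.9, 101, 41.8 and 97.0 on the non-treated arrays and 8.78, 13.4 and 8.56 on the treated arrays. Scaled, the log2 values were 5.93, 5.88, 5.48 and 5.94, against 3.84, 4.07 and 4.06. Replicate 3 of the non-treated label was again the lowest of its group, and the groups did not overlap. This is a log2 fold change of -1.82 with a standard error of 0.13 (limma adjusted p = 3.68e-05), and without non-treated replicate 3 it was -1.96.

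MiR-146b was detected on the 4 non-treated arrays and on none of the 3 treated ones. Its unscaled signal was 74.9, 63.3, 33.6 and 68.5 on the non-treated arrays, where the scaled log2 values were 5.58, 5.21, 5.17 and 5.44. On the treated arrays the unscaled signal was 1.62, 3.71 and 2.24. After scaling these are 2.63, 4.64 and 4.36 on the linear scale, below the lowest signal of any detected miRNA on the same arrays, which was 5.85, 5.34 and 6.71. MiR-146b therefore has only a limit there, and the bound of 6.86-fold was taken as the mean log2 signal of 5.35 ± 0.19 (SD, n = 4) against the mean log2 limit of 2.57. An undetected miRNA can lie above this limit, so the bound holds for this limit only. MiR-10a*, which no treated array detected, had a mean log2 signal of 3.20 on them. With values set to the floor of 6.71 used in the fit, the log2 fold change was -2.60 (limma adjusted p = 3.59e-06), a size that the floor sets. All 3 treated values equal the floor, with an SD of 0, so the p-value and the rank of miR-146b rest on it too. MiR-146b was also tested only because the non-treated arrays detected it, so its passing was largely set by filter and floor. Detection on every array of one label and on none of the other occurred in this direction for 11.0% of the miRNAs tested.

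**Figure D1:**
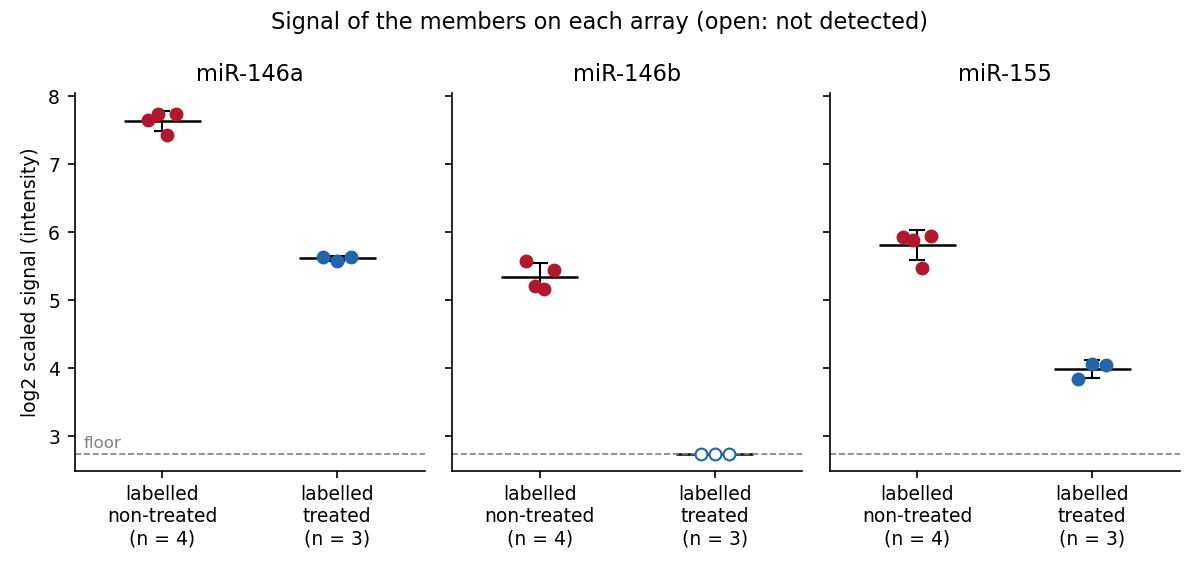
Log2 scaled signal of miR-146a, miR-146b and miR-155 on each array, by group label, with lines at the mean and bars of 1 SD. The treated arrays lie below all non-treated arrays in each panel, and miR-146b sits at the floor (dashed, log2 2.75) on all 3 treated arrays, drawn open because it was not detected.

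For each of the 3 miRNAs every treated array lay below every non-treated array, which held for 36.0% of all miRNAs tested. The exact 2-sided permutation test over the 35 splits of the arrays gave p = 0.0571 for each miRNA, the smallest that 4 against 3 arrays allow, so this test cannot pass 0.05. Ranked from the lowest log2 fold change among the 236 miRNAs, miR-146b, at the floor, was at position 3, miR-146a at 13 and miR-155 at 16, while the median over all miRNAs was -0.061. At least a 2-fold fall past the threshold was found for 15.3% of the miRNAs tested.

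**Figure D2:**
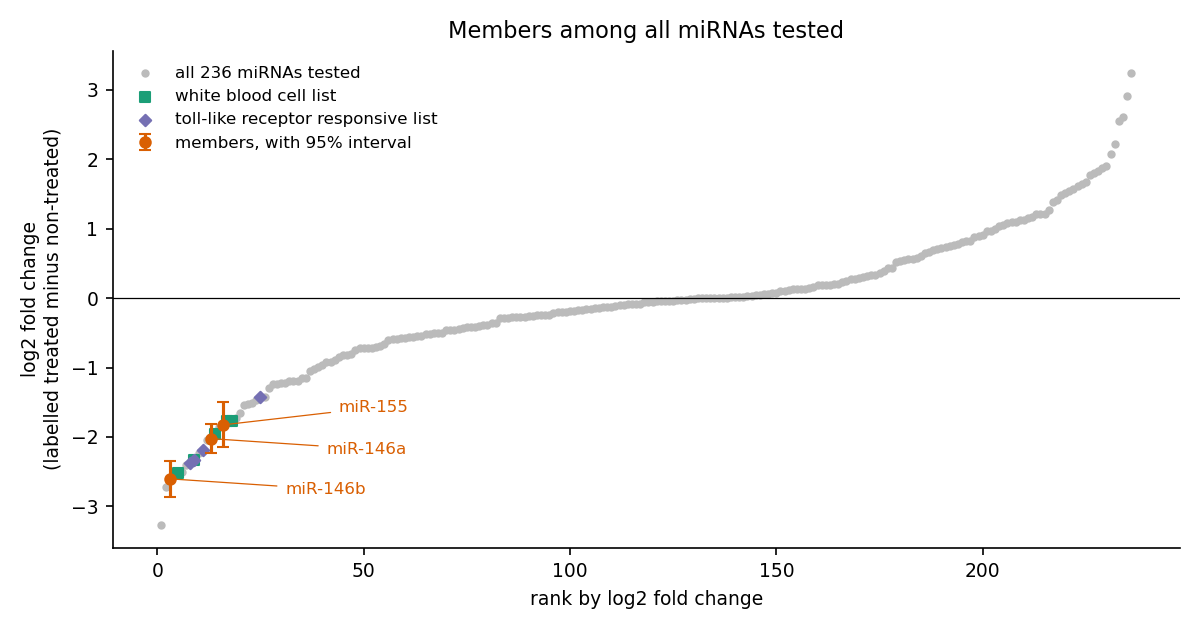
Log2 fold change (labelled treated minus labelled non-treated) of the 236 miRNAs tested, in rank order, with the 3 miRNAs and their 95% intervals in orange. MiR-146b is at rank 3, miR-146a at 13 and miR-155 at 16. Ranks near them are held by miRNAs of the white blood cell and toll-like receptor lists and by miRNAs of neither list, such as miR-31 at 2 and miR-199a-3p at 4.

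The array carries 2 probes of 10 spots for each of the 3 miRNAs, and the probes of a miRNA differed in brightness but not in direction. The brighter probe of miR-146a, A_54_P2317, read 271, 322, 140 and 290 on the non-treated arrays and 27.3, 32.9 and 22.9 on the treated arrays. All its spots were well above background on every array, and after scaling it gave a fold of 3.99 (limma across probes, adjusted p = 1.31e-05). The dimmer one, A_54_P2318, read 45.9, 44.7, 21.0 and 46.8 against 3.24, 5.28 and 2.83, with 2, 7 and 0 of 10 spots well above background on the treated arrays. Its scaled fold was at least 2.59, with measured means that differed 4.64-fold.

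For miR-155 the brighter probe, A_54_P2337, read 81.0, 84.1, 34.9 and 81.1 on the non-treated arrays and 7.04, 10.9 and 7.25 on the treated arrays. On the latter 9, 10 and 10 of 10 spots were well above background, and the scaled fold was 3.61 (limma across probes, adjusted p = 9.60e-05). The dimmer probe, A_54_P2336, read 14.9, 16.8, 6.87 and 15.8 against 1.74, 2.47 and 1.32. None of its spots rose above background on the treated arrays, and no fold can be given for it. On these arrays A_54_P2337 was thus the only probe of miR-155 with spots well above background.

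For miR-146b the brighter probe, A_54_P2006, read 64.8, 53.4, 28.7 and 58.8 on the non-treated arrays and 1.28, 2.88 and 1.75 on the treated arrays. On the treated arrays 0, 1 and 0 of 10 spots were well above background. Held against the lowest signal of a whole probe above background, a stricter limit than that of a detected miRNA, this probe was at least 3.38-fold higher on the non-treated arrays. The dimmer probe, A_54_P2005, read 10.1, 9.93, 4.90 and 9.68 against 0.34, 0.83 and 0.49, and no fold can be given for it. The other strand of the miR-146b hairpin, miR-146b*, has 4 probes of 5 spots, and 0 spots of any were well above background on any array. The star strands of miR-146a and miR-155 were not analysed here.

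**Figure D3:**
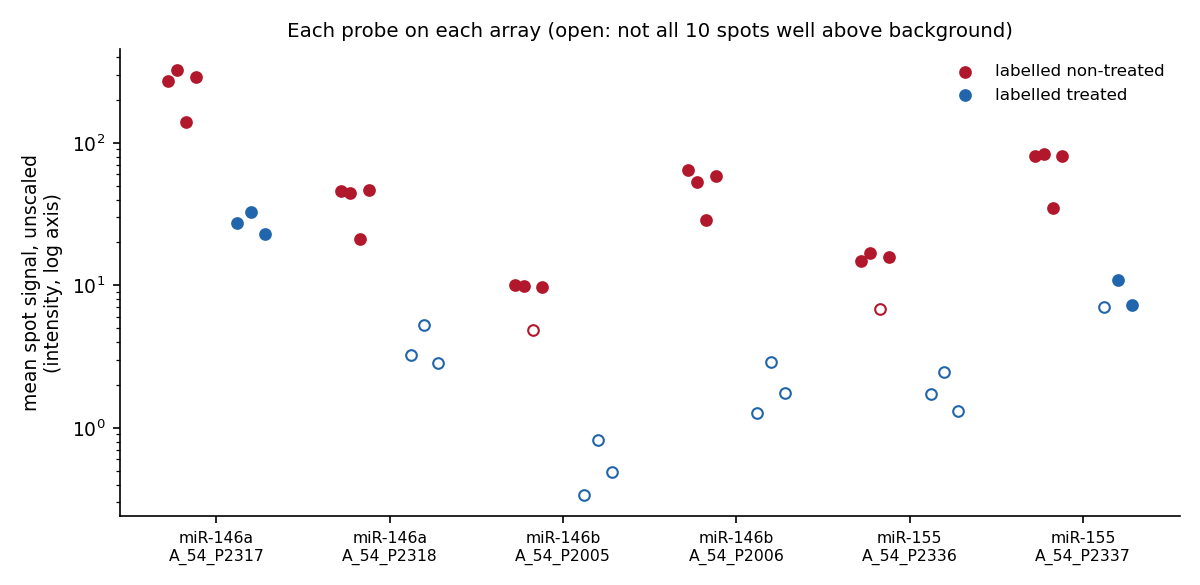
Unscaled mean spot signal of each probe on each array, on a log axis, with open symbols where fewer than all 10 spots were well above background. For every probe of the 3 miRNAs the 3 treated arrays lie below the 4 non-treated ones, and A_54_P2317 of miR-146a is the probe with all spots above background on all arrays.

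A difference in log2 signal between miRNAs of the same array is not changed by a factor common to the whole array, apart from values at the floor, although quantile normalization does change it. Since probes differ in brightness, a ratio of signals is no ratio of molecules, and the change of the ratio between groups alone was compared. MiR-146a over miR-155 was 3.30, 3.63, 3.86 and 3.47 on the non-treated arrays and 3.48, 2.85 and 3.01 on the treated arrays. The ranges overlap, and the log2 difference between groups of -0.20 was within the spread between arrays (exact 2-sided permutation test, p = 0.171, also after Benjamini-Hochberg adjustment over 3 pairs). A difference between the falls of miR-146a and miR-155 was thus not detectable on these arrays. It was -0.81 after normexp correction and -1.005 from the deposited value table, whose column for treated replicate 4 holds an error estimate, and 0.059 without that column.

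For the pair that shares a seed, the answer depends on the limit used for miR-146b. With the limit of a detected miRNA, miR-146a over miR-146b was 4.22, 5.79, 4.80 and 4.91 on the non-treated arrays and at least 8.48, 8.95 and 7.45 on the treated arrays. The groups did not overlap, and the log2 difference was at least 0.76 (exact 2-sided permutation test, p = 0.0571, the smallest possible, and 0.0857 after adjustment over 3 pairs). With the brighter probe of each and the limit of a whole probe, the ratio was 4.18, 6.03, 4.88 and 4.92 against at least 3.84, 5.07 and 3.79. These limits overlap the non-treated values, so an unequal fall of the pair is not settled. The measured ratio on the treated arrays was 21.3, 11.4 and 13.1, with miR-146b below the limit. With the limit of a detected miRNA, miR-146b less miR-155 differed between groups by at most -0.95 on the log2 scale (exact 2-sided permutation test, p = 0.0571, adjusted 0.0857). With the limit of a whole probe, miR-146b was at least 3.38-fold higher on the non-treated arrays, beside 3.61-fold for the brighter probe of miR-155, so an unequal fall of miR-146b and miR-155 is not settled either.

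Other miRNAs known to respond to toll-like receptor signalling in macrophages were read beside them. Of a list of 7, 4 were detected well enough to be tested. All 4 fell, beside 30.9% of all miRNAs tested, with a median log2 fold change of -2.26 against -0.061 over all miRNAs. The list was chosen with earlier results of these data known, so the count describes the list and is no independent support. MiR-21, which is induced by lipopolysaccharide and represses PDCD4, had a mean log2 signal of 13.75 ± 0.23 (SD, n = 4) on the non-treated arrays and 11.56 ± 0.016 (SD, n = 3) on the treated arrays (limma adjusted p = 1.30e-05). MiR-132, induced through CREB, fell by 2.38 on the log2 scale, from 5.17 ± 0.28 (SD, n = 4) to 2.79 ± 0.070 (SD, n = 3), where 2 of 3 arrays detected it near the floor. MiR-125b-5p, which targets Tnf mRNA and is known to decrease after lipopolysaccharide, fell by 1.43 on the log2 scale (limma adjusted p = 4.34e-05). MiR-223, a granulocyte and macrophage miRNA that limits NLRP3, fell by 2.33 on the log2 scale (limma adjusted p = 7.49e-06). MiR-21 and miR-132, known to rise after lipopolysaccharide, and miR-125b-5p, known to decrease, thus had the same direction. MiR-147 and miR-187 were detected on no array, and miR-9 on 2 of 4 non-treated and 1 of 3 treated arrays, so they were not tested.

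MiRNAs of white blood cells moved in the same direction. All 5 of the list fell on the treated arrays, beside 30.9% of all miRNAs tested, with a median log2 fold change of -1.95. This list too was chosen with earlier results of these data known, and the study itself lists miR-142-3p, miR-223 and miR-342-3p as changed. The count was thus partly fixed in advance. The log2 of their summed signal was 10.40 to 10.75 on the non-treated arrays and 8.33 to 8.39 on the treated arrays. MiR-142-3p, specific to blood-forming lineages, fell by 1.95 on the log2 scale (limma adjusted p = 9.39e-05) and miR-142-5p of the same hairpin fell by 1.78 (limma adjusted p = 0.0018). MiR-150, of mature lymphocytes, fell by 1.76 on the log2 scale (limma adjusted p = 0.0071), miR-342-3p fell by 2.52 (limma adjusted p = 2.87e-06), and miR-223, which is also in the list above, fell by 2.33. All 5 were detected on every array, and miR-150 was nearest the floor on the treated arrays, at 2.91 ± 0.20 (SD, n = 3). The count was 4 of 5 when any array but that of non-treated replicate 2 was left out and with quantile normalization. It was 3 of 5 with Bonferroni adjustment, without the filter on dim miRNAs, after normexp correction and from the deposited value table. The part of white blood cells in the lower signal of miR-146a, miR-146b and miR-155 was not tested.

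Within an array, no change in the distance of miR-146a from the mean log2 signal of the white blood cell list was detectable. MiR-146a was 0.43, -0.10, 0.24 and 0.36 above that mean on the non-treated arrays and 0.28 above it on each of the 3 treated ones. The groups differed by 0.045 on the log2 scale (exact 2-sided permutation test, p = 0.97), and by -0.066 without non-treated replicate 2, so no direction can be given. MiR-155 was -1.29, -1.96, -1.71 and -1.44 from the mean of the list, against -1.52, -1.24 and -1.30, a difference of 0.24 with overlapping groups (exact 2-sided permutation test, p = 0.34, adjusted 0.51 over 3 miRNAs). Without non-treated replicate 2 it was 0.12. MiR-146b less the mean of the list differed between groups by at most -0.71 on the log2 scale (exact 2-sided permutation test, p = 0.11, adjusted 0.34). This is a limit again, and the treated limits overlap the non-treated values.

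**Figure D4:**
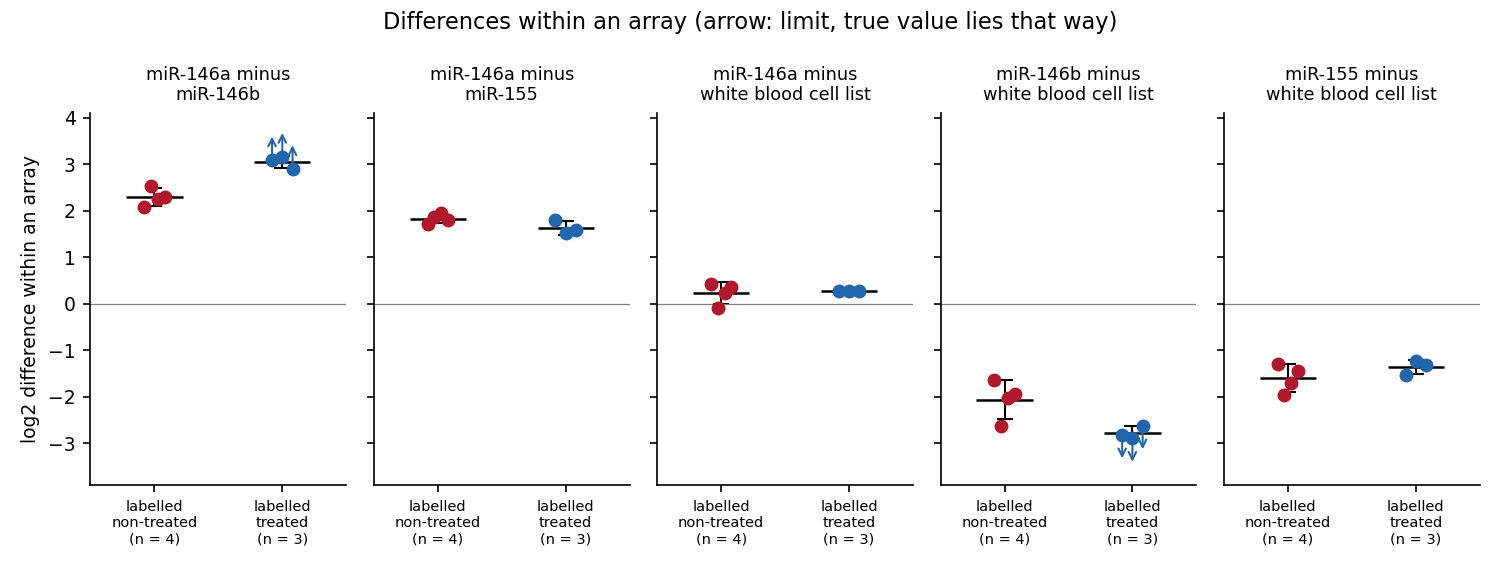
Log2 differences within each array between miR-146a and miR-146b, miR-146a and miR-155, and each miRNA and the mean of the white blood cell list, with lines at the mean, bars of 1 SD and arrows where an undetected miR-146b makes the value a limit. Limits are those of a detected miRNA. With them the groups are apart for miR-146a minus miR-146b, which does not hold with the limit of a whole probe. Groups overlap in the other 4 panels, where for miR-146b minus the list only the limits overlap.

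Markers of other cells, in lists also chosen with earlier results known, differed between the groups too. The smooth muscle and mesenchyme list fell in all 4 of its miRNAs, beside 30.9% of all miRNAs tested, with a log2 summed signal of 11.13 to 11.30 on the non-treated arrays and 9.01 to 9.04 on the treated arrays. MiR-199a-3p fell by 2.55 on the log2 scale and miR-214 fell by 2.51. Of the kidney tubule list, miR-192 and miR-194 rose by 3.24 and 2.92 while miR-204 fell by 0.56, and the log2 summed signal was 7.93 to 8.70 against 11.11 to 11.21. The red blood cell miRNAs miR-144 and miR-451 rose by 2.61 and 1.65, with a log2 summed signal of 10.08 to 11.19 against 12.17 to 12.32. The endothelial miR-126-3p had a log2 fold change of -0.0018 and miR-126-5p of 0.076, and neither passed, with log2 summed signals of 10.79 to 10.93 against 10.80 to 10.89. None of the markers on the array was undetected throughout a group, and the part of these cells in the results was not tested.

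The miRNAs whose log2 pattern over the 7 arrays lay closest to each of the 3 were found by the root mean square distance of centred values. For miR-146a these were miR-183 at a distance of 0.13, miR-155 at 0.14 and miR-199b* at 0.16. For miR-155 they were miR-100 at 0.13, miR-146a at 0.14 and miR-350 at 0.14, so that miR-146a and miR-155 were among the nearest of each other. For miR-146b, whose pattern on the treated arrays is the floor, they were miR-31 at 0.088, miR-199a-5p at 0.11 and miR-199a-3p at 0.11. The log2 fold changes of these neighbours ranged from -2.72 for miR-31 to -1.54 for miR-350, and each was detected on every treated array.

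The direction of all 3 miRNAs was the same in every processing tried, and the size was not. Scaling between arrays also moved the median of all miRNAs. With no scaling that median was -1.20, and miR-146a had a log2 fold change of -3.18 and miR-155 of -2.98. Less the median of all miRNAs, miR-146a lay between -1.98 and -1.81 and miR-155 between -1.78 and -1.63 over the 6 scalings. After normexp background correction with an offset of 50, which is added to every spot, miR-146a still passed at -0.95, whereas miR-155 at -0.14 (limma adjusted p = 0.14) and miR-146b at -0.064 (limma adjusted p = 0.51) did not. Row 1 of the slide held 2 non-treated arrays and only 1 treated array, and row 2 held 2 of each. Within row 1 the log2 difference was -2.07 for miR-146a, -2.65 for miR-146b at the floor and -2.07 for miR-155. Within row 2 it was -1.97, -2.56 and -1.65.

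**Figure D5:**
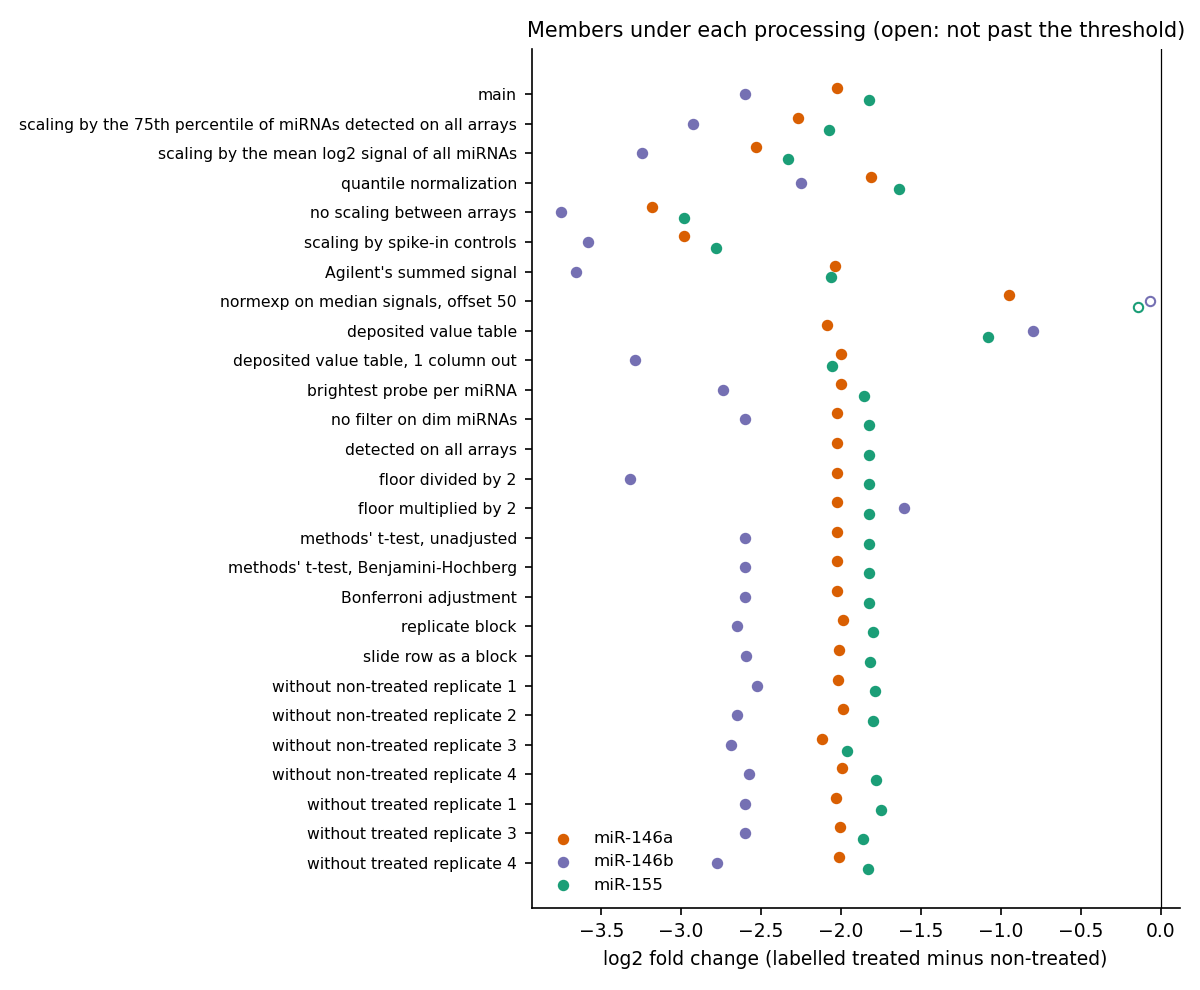
Log2 fold change (labelled treated minus labelled non-treated) of miR-146a, miR-146b and miR-155 under each processing, with open symbols where the threshold was not passed. All values lie below 0, and miR-146b and miR-155 fail the threshold after normexp correction alone.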

How the data were processed

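The files that the authors deposited come from Agilent Feature Extraction (version 10.7.3.1). Their processed signal per spot is a deposited intensity after background subtraction, not normalized between arrays. A deposited value table holds the same intensity for the first spot of each probe on 6 arrays and its error estimate on the array of treated replicate 4, with no log or centring. RNA extraction is given as the RecoverAll kit in the labels and as another kit in the study's tissue methods. No array of treated replicate 2 was analysed here. Array data have no read depth, so precision is limited by how many arrays there are.

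Control spots and spots with outlier flags were left out, and no spot was saturated. Signals were averaged per probe, summed per miRNA, scaled to a common mean log2 over the 186 miRNAs that every array detected, floored at 6.71 and log2 transformed. The labels were compared with limma 3.58.1 (R 4.3.3) over all 236 miRNAs, with Benjamini-Hochberg adjustment and a threshold of 0.01. For a miRNA undetected throughout a group, the bound uses, per array, the higher of its own signal and the lowest detected signal. The 2-sided p of an exact permutation test is 2 times its smaller tail.

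The miRNAs and lists were chosen with earlier results of these data known. Named are the 3 miRNAs with every probe, the star strand of miR-146b, the toll-like receptor, white blood cell and other marker lists, and the 3 miRNAs nearest each in pattern. Scaling and fit were tested on simulated data with known changes, balanced in direction and detected on every array. Undetected groups, their limits and an uneven shift between groups were thus not covered. Replicate arrays differed by at least 1.20 times the spread expected from their spots and were counted separately. All arrays were on 1 slide and in 1 scan. Same-numbered arrays of the groups did not deviate together (Pearson's r across miRNAs -0.055, -0.034 and 0.18), so the numbers were not taken as pairs. Alternatives covered scaling, signal, probes, filter, floor, test, adjustment, the replicate block and each array left out. The slide row as a block, the fit across probes and the probe limit for miR-146b were added after seeing the data.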

Additional observations from a re-analysis of the deposited data

Results flagged for a closer look

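The log2 signal of miR-155 on the array of non-treated replicate 3 was 5.48, apart from 5.88 to 5.94 on the other arrays with that label. The gap was 0.873 of the group's range, above Dixon's 95% critical value for 4 samples. This was 1 of 10 groups of values checked, and chance gives such a gap in about 5% of groups. The same array was the lowest for miR-146a, at 7.43 against 7.66 to 7.75, which did not pass that limit, and it had the lowest mean signal before scaling, 6.65 on the log2 scale. The part of that brightness in the gap was not tested.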

How the results depend on the processing

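MiR-146a passed the threshold under 26 of 26 alternatives, from -3.18 to -0.95 on the log2 scale, miR-155 under 25 of 26 and miR-146b under 24 of 25. The count for miR-146b is no independent support. It was tested only through its detection on the non-treated arrays, and its treated values in the main fit were a constant floor. The requirement of detection on all arrays gives no value for miR-146b. With normexp correction and an offset of 50, where no floor or limit was applied, miR-146b was at -0.064 and miR-155 at -0.14 without passing, miR-146a minus miR-146b turned to -0.88, miR-146b minus miR-155 to 0.074 and miR-146b minus the white blood cell list to 0.89, and 3 of that list passed. MiR-146a minus miR-155 was -0.81 there. The cause was not tested. Agilent's summed signal turned miR-146a minus miR-155 to 0.030 and miR-155 minus the list to -0.014. The deposited value table, whose column for treated replicate 4 holds an error estimate and no signal, gave 56 changed miRNAs, 3 of the list, -0.38 for miR-146a minus the list, -1.005 for miR-146a minus miR-155, and -0.80 for miR-146b and -1.08 for miR-155, both past the threshold. Without that column 93 miRNAs changed, 4 of the list passed, miR-146b was at -3.29 and miR-155 at -2.06, miR-146a minus miR-155 was 0.059, miR-146a minus the list -0.026 and miR-155 minus the list -0.085. A floor multiplied by 2 turned miR-146a minus the list to -0.12. No filter on dim miRNAs left 3 of the list, and Bonferroni adjustment left 3 of the list and 65 changed miRNAs.

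Leaving out each array in turn gave -2.12 to -1.99 for miR-146a, -2.77 to -2.53 for miR-146b and -1.96 to -1.75 for miR-155, all past the threshold, with 112 to 140 changed miRNAs. It gave -0.066 to 0.11 for miR-146a minus the white blood cell list, the lowest without non-treated replicate 2, and 0.12 to 0.35 for miR-155 minus the list, again lowest without that array. With the replicate block, miR-146a was at -1.99, miR-146b at -2.65 and miR-155 at -1.80, all past the threshold, with 94 changed miRNAs, of which 48 were lower against 73 without the block. With the slide row as a block the values were -2.01, -2.59 and -1.82. The methods' t-test called 131 miRNAs unadjusted and 118 after Benjamini-Hochberg adjustment. Between scalings, the numbers higher and lower ran from 61 and 57 with quantile normalization to 7 and 162 without scaling, beside 56 and 73, and the bound for miR-146b from 5.48-fold to 15.3-fold. Signal over background limits miR-146b to a bound on the arrays labelled treated, and leaves the dimmer probes of miR-146b and miR-155 without a fold.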

Other observations

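The medians of the columns of the deposited value table were 0.445, 0.532, 0.470 and 0.346 for non-treated replicates 1 to 4 and 0.322, 0.276 and 1.0 for treated replicates 1, 3 and 4. The last column equals the error estimate of the processed signal for 100% of 1981 probes, and each of the other columns equals the processed signal itself.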
